A study of Mus musculus with 24 samples.

Results

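Genes of the blood vessel wall, 10 of the 18193 genes named on the arrays, were followed through a mouse colitis experiment. They were taken by symbol: every probe set annotated to Vcam1, Icam1, Sele, Selp or Madcam1 (5 inducible adhesion molecules) and to Pecam1, Cdh5, Kdr, Vwf or Cd34 (5 constant endothelial markers). This gave 15 probe sets, 14 on the 430A array and 1 on the 430B array. The filter on low signal, a mean above about 179.5 on 430A, left 9 probe sets from 7 genes for testing. Sele, Selp and Vwf had no probe set above it and were not tested, though their log2 signals enter the means over 5 genes below, and 1 Selp probe set is also given from a fit without the filter.

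Leukocytes leave the blood in steps. Selectins on the vessel wall catch passing cells, and immunoglobulin-type adhesion molecules then bind integrins on the leukocyte and hold it. In resting vessels the inducible molecules are scarce, and cytokines such as tumour necrosis factor and interleukin-1 raise their transcription through NF-kappa B. MAdCAM-1 is the form used by gut venules, where it binds the integrin that steers lymphocytes to the intestine. The constant markers, in contrast, are made by endothelial cells whether or not the tissue is inflamed, and serve as a gauge of how much vessel wall a sample holds.

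The samples were whole colon from BALB/c mice, an inbred strain, aged 6 to 8 weeks. Diet and enema were crossed to 4 groups of 3 numbered samples, and every sample was run on both array types: standard diet with control enema, standard diet with TNBS enema, curcumin diet with control enema, and curcumin diet with TNBS enema. TNBS (trinitrobenzene sulfonic acid) is a hapten that provokes colitis, and the curcumin diet held 2% of this turmeric polyphenol. Diets started 2 days before the enema on day 0, and the colon was taken on day 7. The labels say that RNA of 3 mice per group was pooled but not whether the 3 samples are separate pools, so every error below is a spread between samples, which may be technical. In whole tissue, fewer endothelial cells and less RNA per cell cannot be told apart.

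The promoters are shown for the pair of tested adhesion genes whose upstream sequence was at hand, because NF-kappa B sites are the known route of their induction. Both windows run from 250 bases before to 50 bases after the RefSeq start on GRCm38.p6, on the forward strand, at chr9:21015690-21015989 for Icam1 and chr10:79664309-79664608 for Madcam1. Capitals mark matches to the 9-letter motif GGAAANNCC or to the NF-kappa B consensus, which overlap in Madcam1.
Icam1: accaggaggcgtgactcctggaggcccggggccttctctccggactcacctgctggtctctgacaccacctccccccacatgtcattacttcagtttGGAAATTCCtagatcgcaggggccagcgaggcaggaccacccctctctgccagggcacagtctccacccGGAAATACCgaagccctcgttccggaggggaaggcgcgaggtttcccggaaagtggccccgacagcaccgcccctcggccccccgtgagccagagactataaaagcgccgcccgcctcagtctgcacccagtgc
Madcam1: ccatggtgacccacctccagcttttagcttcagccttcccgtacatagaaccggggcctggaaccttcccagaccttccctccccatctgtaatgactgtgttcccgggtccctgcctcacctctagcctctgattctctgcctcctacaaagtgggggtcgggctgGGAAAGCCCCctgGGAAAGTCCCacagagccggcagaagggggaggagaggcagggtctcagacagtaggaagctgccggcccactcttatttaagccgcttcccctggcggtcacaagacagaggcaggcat
The Icam1 window holds GGAAATTCC at -153 to -145 and GGAAATACC at -84 to -76, counted from the start site as +1, and no match to the consensus. The Madcam1 window holds 2 matches to both motifs, GGAAAGCCCC at -83 to -74 and GGAAAGTCCC at -70 to -61, the consensus being read there on the opposite strand. Of 32851 windows of the same length, 5.82% hold GGAAANNCC and 4.51% hold the consensus, each searched on both strands. Among the other windows, Selp holds GGAAAGGCC at -14 to -6, Kdr holds the consensus match GGGAGTCCCC at -74 to -65, and Sele and Cd34 hold neither motif. The short motif was chosen after these windows were read, and a match is a description of the letters and not a binding site. Windows were found for 6 of the 10 genes. Vcam1, Pecam1, Cdh5 and Vwf have none here.

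The 430A arrays fell into 2 sets of 6 along the first principal component, which carried 39.7% of the variance. All 4 groups have arrays in both sets. Standard diet with control enema and curcumin diet with TNBS have 1 array in set 1 and 2 in set 2. The other groups have 2 in set 1 and 1 in set 2. Arrays correlated on average at 0.961 within a set and 0.929 between sets, and at 0.942 within a group and 0.944 between groups. The sets were drawn from these same signals, which builds in a gap between sets, so the 2 pairs of values cannot be weighed against each other. What the sets are is not in the labels. Results are therefore given from the fit of group means, and many of them also from the same fit with the set as a term. Because the set was drawn from the signals but enters that fit as known, its SE and p may be too small. On 430B, 2 of the 3 arrays of curcumin diet with TNBS stood apart from the rest. Colon epithelial genes were present everywhere, with a summed signal of 7 genes from 47342 to 61042 over the 12 samples. Pancreatic acinar genes were present in uneven amounts inside every group and between groups. On the standard diet their summed signal of 7 genes ran from 867 to 97891 with the control enema and from 39353 to 99212 with TNBS. On curcumin it ran from 786 to 49082 and from 1071 to 78673. Standard diet with TNBS was thus the only group with no sample at the low end. Whether this bears on the members' differences was not tested.

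Apart from 1 Vcam1 probe set, the tested adhesion molecules had their highest group mean after TNBS on the standard diet, while with TNBS on curcumin they were close to their controls. Vcam1, the ligand of the integrin VLA-4 on lymphocytes and monocytes, had signals of 239.9, 355 and 387 with the control enema and 762, 418 and 621 with TNBS on the standard diet (probe set 1415989_at). All 3 TNBS samples lay above all 3 control samples. The log2 difference was 0.83 ± 0.29 (SE), a 1.78-fold higher signal on the log2(signal + 16) scale, with an adjusted p of 0.360 in limma. With the array set as a term it was 1.02 ± 0.19 with an adjusted p of 0.0485, the only tested member probe set past the threshold of 0.05 in either fit and any comparison. It was 1.04 between arrays of set 1 and 1.01 between arrays of set 2. As the sets come from these same signals, the SE and p of the fit with the set may be too small here. With each of the 12 samples left out in turn, the call held in 2 runs (without standard diet TNBS sample 2, adjusted p = 0.0259, or curcumin diet control sample 3, adjusted p = 0.0213) and was lost in the other 10, with adjusted p up to 0.301 and log2 differences from 0.89 to 1.15.

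Vcam1 has 3 tested probe sets, and they did not behave alike. Probe set 1448162_at read 191, 188 and 399 in the controls and 833, 383 and 538 (TNBS) on the standard diet, so that the groups overlapped by a small margin. Its log2 difference was 1.14 ± 0.34 (SE; adjusted p = 0.278 in limma). Probe set 1451314_a_at gave 228, 296 and 285 against 550, 158 and 66.8, with a log2 difference of -0.50 ± 0.90 (SE; adjusted p = 0.923 in limma). Every array of set 2 read higher on it (285 to 631) than every array of set 1 (29.1 to 228), which no other of the 9 tested member probe sets did. Averaged over the 3 probe sets, the Vcam1 difference was 0.49 with group means. With the array set as a term, 1451314_a_at stood at 0.12 ± 0.57 and 1448162_at at 1.25 ± 0.33 (log2 ± SE).

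Icam1, the ligand of the beta-2 integrins LFA-1 and Mac-1, read 249, 172 and 182 in standard diet controls. After TNBS on this diet it read 258, 290.0 and 396, all above the controls, though the lowest TNBS sample exceeded the highest control by a small amount. The log2 difference was 0.61 ± 0.23 (SE; adjusted p = 0.425 in limma, 95% interval 0.10 to 1.11 before adjustment), and 0.47 ± 0.16 with the array set. Madcam1 read 187, 214 and 263 in the controls and 326, 359 and 355 after TNBS. Its 3 TNBS samples were the most alike of its 4 groups (mean 347 ± 17.8, SD, n = 3) and stood clear of the controls (221 ± 38.5, SD, n = 3). The log2 difference was 0.62 ± 0.20 (SE) in both fits, with an adjusted p of 0.319 and, with the array set, 0.173 in limma.

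Both selectins stayed below the filter. E-selectin (Sele), which is made by activated endothelium and catches neutrophils, read 92.4, 27.2 and 41.2 in standard diet controls and 17.6, 91.0 and 133 after TNBS. No 2 groups were apart, but every array of set 1 (66.2 to 133) read higher than every array of set 2 (17.6 to 65.3). P-selectin (Selp), stored in endothelial granules and platelets, read 92.7, 52.5 and 154 in these controls and 186, 133 and 289 after TNBS on its brightest probe set, 1420558_at, with overlap. On 1449906_at its signals were 13.6 to 69.7 over all samples. The 430B probe set 1440173_x_at read 11.4, 22.1 and 9.7 in standard diet controls against 60.2, 116 and 219.9 after TNBS. These groups did not overlap. Fitted without the filter, its log2 difference was 2.15 ± 0.48 (SE; adjusted p = 0.371 in limma). Probe sets of its type can bind related transcripts, and on the curcumin diet its TNBS samples included the 2 arrays that stood apart.

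**Figure D1:**
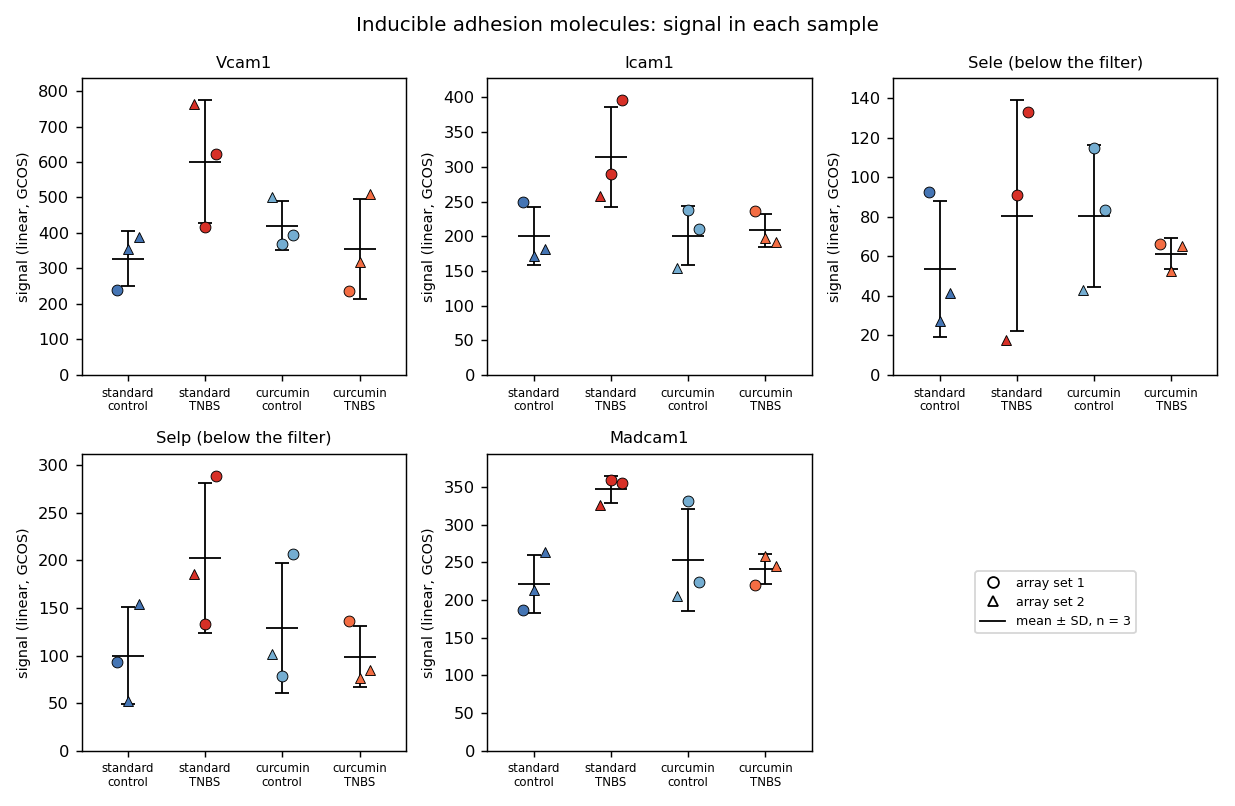
Signal (linear, vertical axis) of the 5 inducible adhesion molecules in each of the 12 samples, by diet and enema, on the brightest 430A probe set of each gene. Points are samples, circles array set 1 and triangles array set 2, and bars are mean ± SD of 3 samples. For Madcam1 the standard diet TNBS samples lie at 326 to 359, and the control samples of that diet at 187 to 263.

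Of the 9 member probe sets tested, 0 passed an adjusted p of 0.05 for TNBS on the standard diet in the fit of group means, where 0.00737% of the 13575 probe sets of 430A did. With the array set it was 1, against 0.464% of all. At an unadjusted p under 0.05 in limma, 5 of the 9 qualified, and 1265 of the 13575. Samples did not overlap, TNBS being higher, for 4 of 9 (Vcam1 1415989_at, Icam1, Madcam1 and Pecam1), where 7.01% of all probe sets did so, and TNBS was lower without overlap for 0 of 9, where 7.65% of all did. The median log2 difference was 0.62 over the 5 tested probe sets of inducible genes, 0.09 over the 4 of constant markers and -0.02 over all probe sets. With the array set the first stayed at 0.62 and the second was 0.23.

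The constant markers gave a flatter picture with 1 exception. Pecam1, the junction molecule PECAM-1, which platelets and several leukocytes also carry, read 315, 284 and 293 in standard diet controls and 322, 419 and 446 after TNBS. The groups were apart by a narrow margin, with a log2 difference of 0.38 ± 0.17 (SE; adjusted p = 0.506 in limma, 95% interval 0.02 to 0.74 before adjustment). VE-cadherin (Cdh5), which seals endothelial junctions, read 254, 381 and 393 in these controls and 449.6, 263 and 335 after TNBS on probe set 1433956_at. The groups covered the same range, with a log2 difference of 0.02 ± 0.29 (SE; 95% interval -0.60 to 0.64). In each of the 4 groups the arrays of set 2 read higher for Cdh5 than those of set 1, and with the array set the difference was 0.23 ± 0.15. Its other probe set, 1422047_at, was below the filter at 69.6 to 209 over all samples.

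Kdr encodes the main receptor for vascular endothelial growth factor. It read 367, 443 and 475 in standard diet controls and 404, 534 and 504 after TNBS, a log2 difference of 0.16 ± 0.21 (SE; 95% interval -0.31 to 0.63). Cd34, a sialomucin of endothelial cells that stromal cells carry too, read 375, 379.9 and 433 against 333, 418 and 325, a log2 difference of -0.14 ± 0.15 (SE; 95% interval -0.47 to 0.19). Both markers overlapped between the groups. Vwf, the clotting factor of endothelial granules, was below the filter at 14.7 to 133 over all samples. These intervals leave room for changes of up to about the size seen for Icam1 and Madcam1 in Cdh5 and Kdr, and for less in Cd34.

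**Figure D2:**
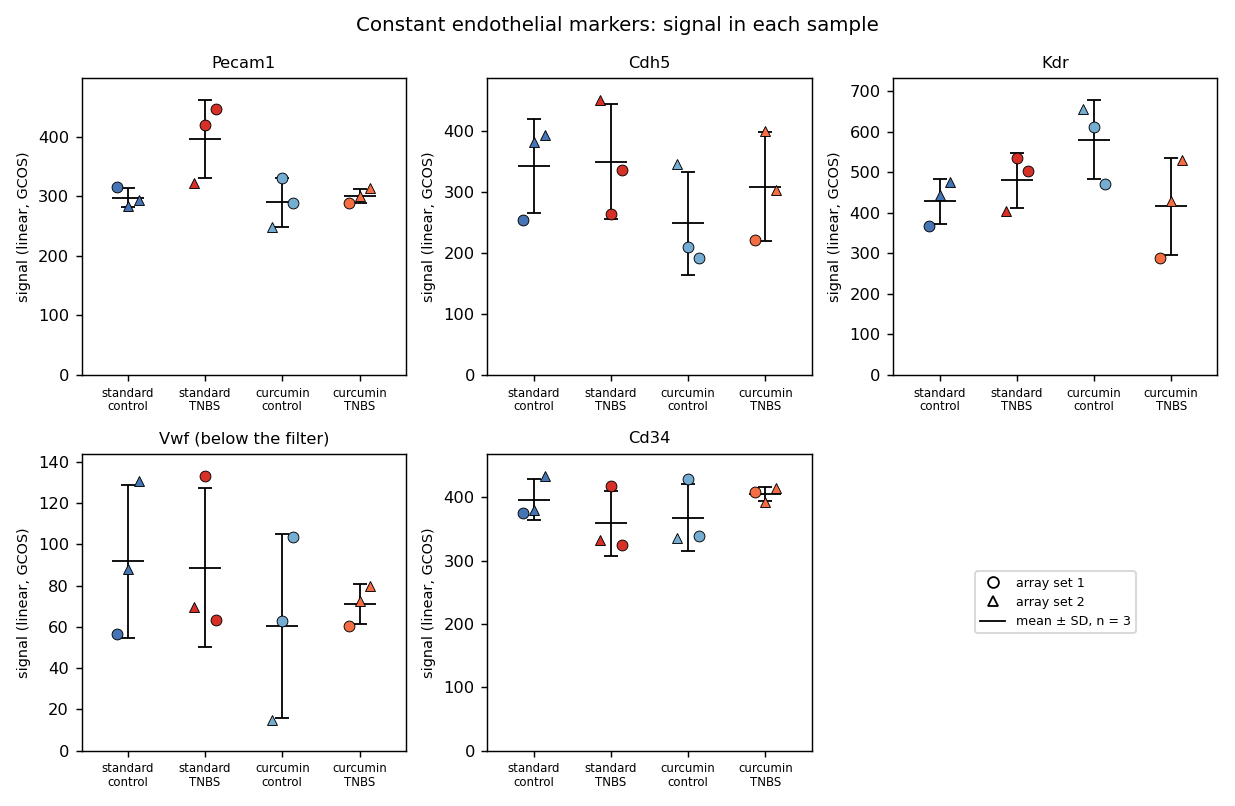
Signal (linear, vertical axis) of the 5 constant endothelial markers in the 12 samples, by diet and enema, on the brightest 430A probe set of each gene. Circles are array set 1, triangles array set 2, and bars mean ± SD of 3 samples. Cd34 ran from 325 to 433 over all samples, and Pecam1 samples of standard diet with TNBS lie at 322 to 446.

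On the curcumin diet TNBS and control samples of the tested adhesion molecules were not apart. Vcam1 (1415989_at) read 501, 369 and 393 with the control enema and 236, 319 and 509 with TNBS, a log2 difference of -0.29 ± 0.29 (SE; 95% interval -0.92 to 0.33), and -0.48 ± 0.19 with the array set (adjusted p = 0.917 in limma). Icam1 read 154, 238 and 211 against 236, 198 and 191, a difference of 0.06 ± 0.23. Madcam1 read 206, 331 and 224 against 219.7, 258 and 245, a difference of -0.04 ± 0.20. The samples of both enemas overlapped for each of these genes. Of the probe sets below the filter, Selp 1440173_x_at read 31.0, 10.9 and 38.9 against 42.9, 122 and 45.3 without overlap, a log2 difference of 0.95 ± 0.48 (SE; adjusted p = 0.269 in limma without the filter), and the 122 and 45.3 are from the 2 arrays that stood apart. The widest difference among the 9 tested probe sets was that of Kdr, at 657, 613 and 471 against 289, 428 and 529, or -0.49 ± 0.21 on the log2 scale (SE; unadjusted p = 0.0400 and adjusted p = 1.00 in limma, with 12 arrays in the fit). Pecam1 read 249, 331 and 289 against 289, 300.0 and 313, Cdh5 345, 209 and 191 against 222, 399.8 and 303, and Cd34 336, 428 and 339 against 408, 393 and 415.

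For TNBS on the curcumin diet, 0 of 9 member probe sets passed in limma in either fit, as did 0% of all probe sets, and 1 of 9 had an unadjusted p under 0.05 (373 of 13575), or 2 with the array set (698 of 13575). Of the 9, 0 were free of overlap in either direction, where 3.42% of all were higher and 3.67% lower without overlap.

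With the control enema, too, the members did not part the diets. Vcam1 (1415989_at) differed by 0.36 ± 0.29 between curcumin and standard diet, Kdr by 0.42 ± 0.21 and Cdh5 by -0.46 ± 0.29 (log2 ± SE), and the adjusted p in limma was 0.998 for all 3 genes. In the fit with the set these were 0.55 ± 0.19, 0.50 ± 0.20 and -0.25 ± 0.15, with adjusted p of 0.881, 0.883 and 0.928. Kdr was the nearest to separation: its lowest curcumin sample (471) lay just under its highest standard diet sample (475). The count past the threshold in limma was 0 of 9 in both fits, as for 0% of all probe sets, with 0 of 9 at an unadjusted p under 0.05 (415 of 13575), or 2 of 9 with the array set, Vcam1 1415989_at and Kdr (753 of 13575). Groups without overlap numbered 0 of 9 in each direction, where 3.12% of all were higher and 3.73% lower.

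With the TNBS enema, 4 of the 5 tested probe sets of adhesion molecules had a lower group mean on the curcumin diet than on the standard diet, and none of them passed the test. The standard diet TNBS samples enter both this comparison and that of TNBS with control on the standard diet, so the comparisons are not independent. Vcam1 differed by -0.76 ± 0.29 (SE; adjusted p = 0.371 in limma) on 1415989_at, with 1 curcumin sample at 509 inside the standard diet range. With the array set it was -0.95 ± 0.19 with an adjusted p of 0.0590. That value passed the threshold when standard diet TNBS sample 2 (adjusted p = 0.0305), curcumin diet control sample 3 (0.0319) or curcumin diet TNBS sample 3 (0.0330) was left out, and reached 0.309 without standard diet TNBS sample 1. Probe set 1448162_at read 243, 292 and 286 on the curcumin diet, all below the 383 to 833 of the standard diet, a log2 difference of -0.99 ± 0.34 (SE; adjusted p = 0.338 in limma). On 1451314_a_at the difference was 0.30 ± 0.90, and averaged over the 3 probe sets it was -0.48, both with group means. With the array set, 1451314_a_at stood at -0.32 ± 0.57 and 1448162_at at -1.10 ± 0.33 (log2 ± SE).

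Icam1 under TNBS was lower on curcumin by -0.54 ± 0.23 and Madcam1 by -0.50 ± 0.20 (log2 ± SE; adjusted p of 0.455 and 0.413 in limma). For both, the 3 curcumin samples lay below the 3 standard diet samples. Pecam1 differed in the same direction, by -0.37 ± 0.17 (SE; adjusted p = 0.482 in limma) and no overlap. The selectin Selp read 136, 76.2 and 84.6 on its brightest probe set under curcumin with TNBS, against 133 to 289 on the standard diet, and Sele read 66.2, 52.6 and 65.3 against 17.6 to 133. The other constant markers overlapped: Cdh5 differed by -0.18 ± 0.29, Kdr by -0.23 ± 0.21 and Cd34 by 0.18 ± 0.15 (log2 ± SE). The Cdh5 difference with the array set was -0.39 ± 0.15 (adjusted p = 0.247 in limma).

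In this comparison 0 of 9 member probe sets passed in limma with group means, where 0.0295% of all did, and 0 of 9 with the array set, where 0.221% did. At an unadjusted p under 0.05 there were 5 of 9, and 1378 of 13575 overall. Curcumin samples were lower without overlap for 4 of 9 (Vcam1 1448162_at, Icam1, Madcam1 and Pecam1), where 7.98% of all probe sets were, and higher without overlap for 0 of 9, where 8.18% were. The median log2 difference was -0.54 over the 5 inducible probe sets, -0.21 over the 4 constant ones and 0.01 over all. The first pair was -0.50 and -0.31 with the array set.

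**Figure D3:**
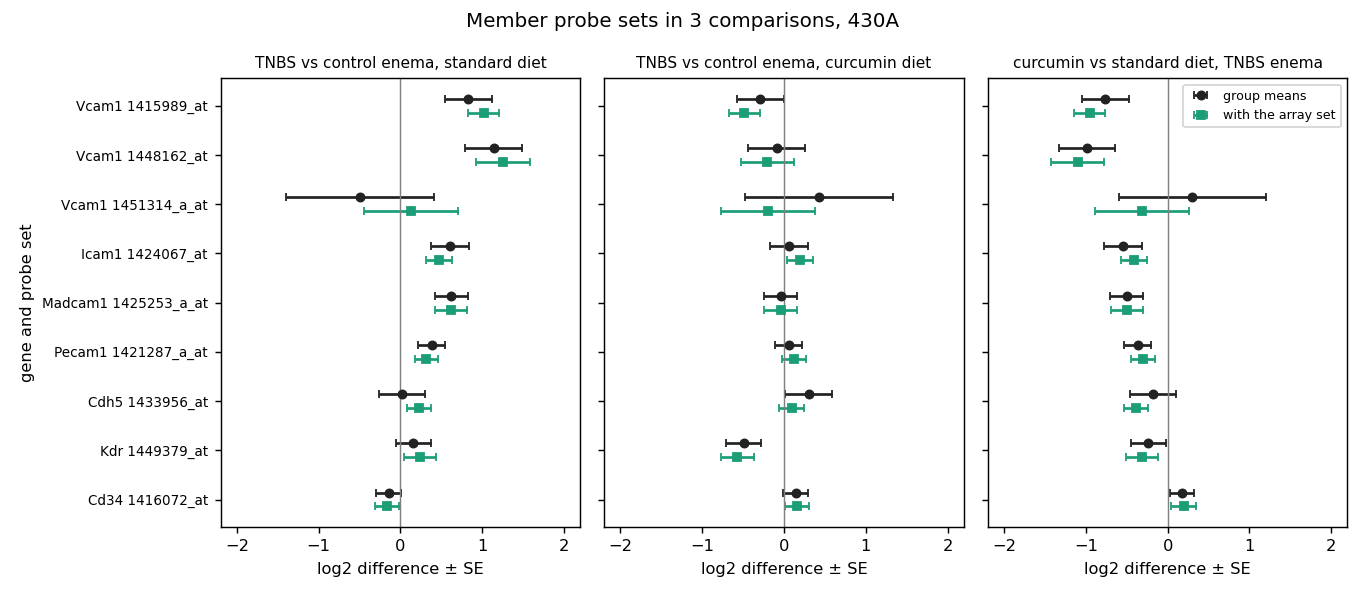
Log2 difference ± SE (horizontal axis) of the 9 tested member probe sets in 3 comparisons, from the fit of group means (black circles) and from that with the set as a term (green squares), 12 arrays each. On the standard diet the TNBS difference of Vcam1 1415989_at is 0.83 and 1.02 in these fits, and with curcumin against standard diet under TNBS it is -0.76 and -0.95. The first and the last panel share the standard diet TNBS samples.

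The interaction asks whether TNBS and control differed by another amount on curcumin than on standard diet. The array sets are uneven along this same contrast, so set and interaction are partly confounded. For Vcam1 1415989_at the interaction was -1.12 ± 0.41 (SE; adjusted p = 0.387 in limma) and -1.50 ± 0.28 with the array set (adjusted p = 0.113). Averaged over the 3 Vcam1 probe sets it was -0.48 with group means. In that average 1451314_a_at stood at 0.92 ± 1.28, which was -0.32 ± 0.84 with the array set. For Madcam1 it was -0.67 ± 0.29 in both fits (adjusted p of 0.463 and 0.317), for Icam1 -0.54 ± 0.33 (0.607), or -0.28 ± 0.24 with the array set, and for Kdr -0.65 ± 0.30 (0.508). Cdh5 and Cd34 each stood at 0.28, with SE of 0.40 and 0.22, and Pecam1 at -0.32 ± 0.23. With the array set Kdr was at -0.81 ± 0.29 (SE; adjusted p = 0.235 in limma), a larger value than that of Madcam1 or Icam1. In that fit Cdh5 was at -0.14 ± 0.22, Cd34 at 0.32 ± 0.22 and Pecam1 at -0.20 ± 0.21. No member probe set of the 9 passed in limma in either fit, nor did any of the others (0%), with 3 of 9 at an unadjusted p under 0.05 against 1347 of 13575, and 4 of 9 against 1945 with the array set.

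To set the adhesion genes against the amount of vessel wall, each gene's log2 signal in a sample was taken minus the mean log2 signal of the 5 constant markers of that sample. Probe sets differ in brightness, so only the change between groups can be read. Madcam1 on this scale stood at -0.30, -0.36 and -0.25 in standard diet controls and at 0.25, 0.16 and 0.32 after TNBS, a gap wider than the spread of either group (means -0.30 ± 0.05 and 0.24 ± 0.08, SD, n = 3). The change was 0.54 between arrays of set 1 and 0.56 between those of set 2. On the curcumin diet it stood at 0.03 ± 0.24 with the control enema and -0.09 ± 0.10 with TNBS (SD, n = 3), which overlap.

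Vcam1 relative to the constant markers was 0.21 ± 0.16 in standard diet controls, 0.97 ± 0.55 after TNBS, 0.74 ± 0.36 in curcumin controls and 0.37 ± 0.39 in curcumin with TNBS (log2, SD, n = 3). The samples of standard diet TNBS (0.37 to 1.44) lay just above those of its controls (0.03 to 0.33), and so did the curcumin controls (0.46 to 1.15). The 1.15 is from curcumin control sample 1, where Vwf, below the filter, had its lowest signal (14.7) and lowered the mean of the constant markers. Icam1 was -0.44 ± 0.46, 0.09 ± 0.34, -0.27 ± 0.16 and -0.29 ± 0.34 in the same order, with overlap between all groups but 1 pair: standard diet TNBS (-0.14 to 0.47) and curcumin controls (-0.46 to -0.14) were apart by a very small margin. Its change with TNBS on the standard diet was 0.09 between arrays of set 1 and 0.63 between those of set 2. Over all 5 inducible genes the means were -0.83 ± 0.30, -0.23 ± 0.37, -0.39 ± 0.10 and -0.63 ± 0.22. The mean of the constant markers themselves shifted by 0.07 with TNBS on the standard diet, but by 0.34 between arrays of set 1 and -0.12 between those of set 2. With curcumin under TNBS it shifted by -0.16, and by -0.43 and 0.04 within the sets. No test was made on these ratios, since the genes were chosen with earlier results of these data known.

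**Figure D4:**
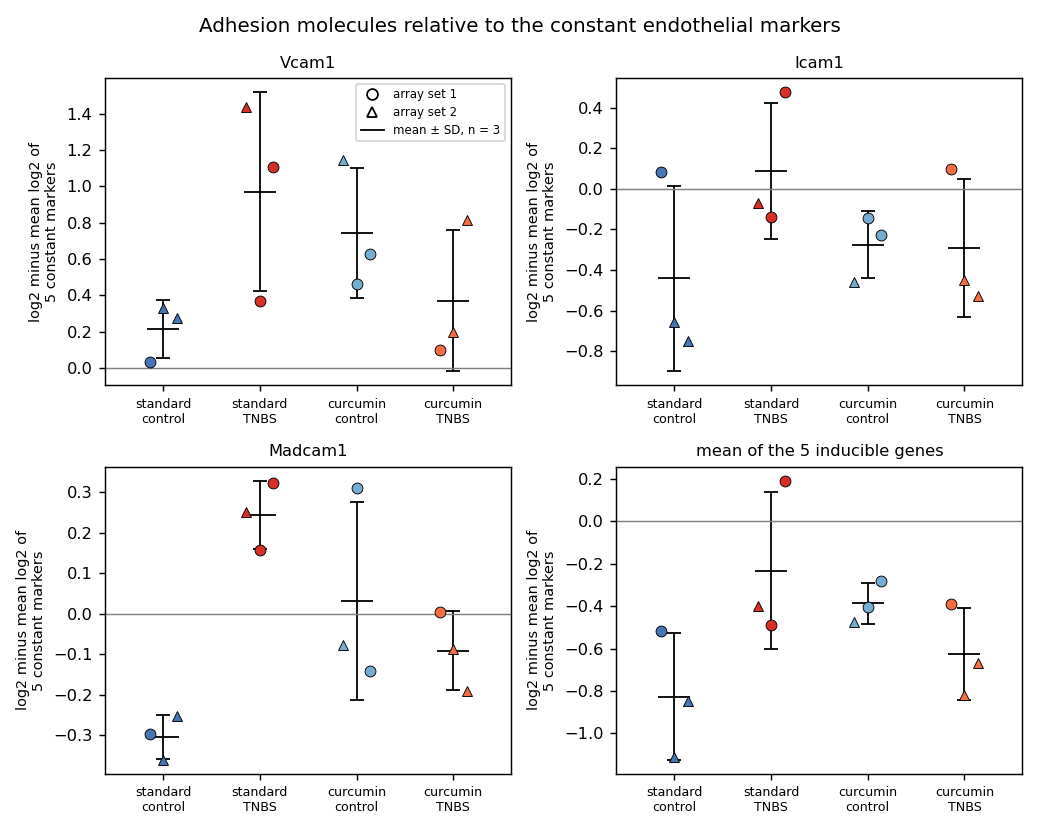
Log2 signal of Vcam1, Icam1, Madcam1 and the mean of the 5 inducible genes, each minus the mean log2 signal of the 5 constant markers in the same sample (vertical axis), by diet and enema. Circles are array set 1, triangles array set 2, and bars mean ± SD of 3 samples. The standard diet TNBS samples of Madcam1 (0.16 to 0.32) lie above the controls of that diet (-0.36 to -0.25), and the zero line has no meaning across probe sets.

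By the median of their list, the molecules on the leukocyte side were nearer to the bulk of the array. Of 17 tested 430A probe sets of integrins, selectin ligands and related receptors, 0 passed for TNBS on the standard diet in either fit. Their median log2 difference was 0.14, with 13 of the 17 higher after TNBS, or 10 with the array set. On 430A, 4 of the 14 genes of this list lay below the filter. Mean signals ran from 52.8 for the integrin chain Itga4 to 6601 for Cd24a. The median therefore leaves out part of the leukocyte side. Itgal, the alpha chain of LFA-1 and so a partner of Icam1, differed by 0.84 ± 0.30 (SE; adjusted p = 0.375 in limma), Selplg, the ligand of P-selectin, by 0.57 ± 0.26 (0.524), and Itgb2, the shared beta-2 chain, by 0.42 ± 0.22 (0.615). Other endothelial genes, 23 probe sets of 430A, had a median of 0.02 with TNBS on the standard diet and -0.03 with curcumin under TNBS, and 0 passed in either. With the array set the medians were 0.13 and -0.17, with 17 and 5 of the 23 higher. On the standard diet the summed signal of 28 of these genes was 8096 to 8551 with the control enema and 8813 to 9038 with TNBS. With TNBS on curcumin it was 7603.5 to 8401. Of the 28 genes, 9 lay below the filter. Ecscr, an endothelial surface protein measured on 430B, had group means of 925 and 1677 with control and TNBS enema on the standard diet and 1015 and 839.7 on curcumin, and its difference of -0.997 ± 0.24 for curcumin under TNBS (adjusted p = 0.0517 in limma) was -0.53 ± 0.31 without the outlying arrays. The growth and guidance genes of vessels, with 20 probe sets, had medians of 0.05 and -0.14, and 0 of the 20 passed. In this list Thbs1, an inhibitor of vessel growth, differed by 1.19 ± 0.33 with TNBS (adjusted p = 0.225 in limma) and the hypoxia factor Hif1a by 0.73 ± 0.18 (0.175), while Epas1, another hypoxia factor, differed by -0.83 ± 0.30 (0.380).

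Among 16 probe sets of the cytokines and NF-kappa B genes that induce these molecules, Il1b had signals of 279 and 940.3 (group means) with control and TNBS enema on the standard diet and 287 and 314 on curcumin. It passed with the array set, with a log2 difference of 1.69 ± 0.26 for TNBS (adjusted p = 0.0376 in limma, and 0.0593 with group means) and -1.57 ± 0.26 for curcumin under TNBS (0.0426, and 0.0907 with group means). The other 15 did not pass, and the list's medians were 0.14 and -0.23. On 430B, 2 probe sets of the lists passed for curcumin under TNBS in the fit of group means: Nfkbia, the inhibitor of NF-kappa B, by -0.73 ± 0.15 (adjusted p = 0.0418 in limma), and Nrp2, a coreceptor of vascular growth factors, by 1.02 ± 0.21 (0.0398). Without the 2 arrays of that group that stood apart, the differences were -0.55 ± 0.21 (adjusted p = 0.787) and 0.63 ± 0.27 (0.859). Those values, like that of Ecscr, rest on 1 curcumin TNBS sample, which is assumed to vary like the other groups.

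Summed signals of neutrophil, macrophage and lymphoid follicle genes were highest after TNBS on the standard diet, as were the group means of most tested adhesion probe sets. The summed signal of 9 neutrophil genes was 972 to 1227 in standard diet controls and 4317 to 8296 after TNBS, and 697 to 1599 with TNBS on curcumin. Of these 9 genes, 5 lay below the filter, so the sum includes genes that were not tested. Of the 4 tested neutrophil probe sets, 0 passed with group means. With the array set, 3 rose for TNBS on the standard diet, namely Mmp8 by 1.42 ± 0.21 (adjusted p = 0.0376 in limma), Mmp9 by 1.17 ± 0.21 (0.0485) and Ngp by 1.26 ± 0.17 (0.0320). Under TNBS, Ngp was lower on curcumin by -1.45 ± 0.17 (0.0102) and Csf3r by -1.82 ± 0.32 (0.0446), again with the array set. Summed signals of 10 macrophage genes were 8100 to 9425 and 11703 to 13552 with control and TNBS enema on the standard diet, and those of 10 lymphoid follicle genes 3209 to 3513 and 4334 to 5164. Of their probe sets, 0 of 11 and 0 of 8 passed in limma in either fit, and the monocyte receptor Cd14 differed by 1.02 ± 0.20 (adjusted p = 0.0986). The follicle sum follows the chemokine Cxcl13, whose group mean was 776 and 2109 (a difference of 1.40 ± 0.28, adjusted p = 0.0986 in limma). The median over the follicle probe sets was 0.08, with 5 of 8 higher and Cr2 at -0.33 ± 0.24. For T cell genes the sum of 7 genes was 736 to 873 after TNBS and 630 to 1096 in the controls of the standard diet. Of these 7 genes, 6 lay below the filter, so the sum cannot show whether T cells changed. Platelet and fibroblast sums were also apart on the standard diet. Those of 8 platelet genes were 2192.5 to 2459.5 with the control enema and 2655 to 3006 with TNBS, and 2157 to 2835 with TNBS on curcumin. Those of 8 fibroblast genes were 17872 to 19271, 19325 to 25684 and 18312 to 20827 in the same order. For TNBS on the standard diet, 0 of their 6 and 0 of their 10 probe sets passed in limma. Leukocytes can carry Pecam1 and Icam1 themselves, platelets Pecam1 and Selp, and follicle stroma Vcam1 and Madcam1. Their part in the members' differences was not tested.

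Around the vessels, 1 gene of mural cells differed the other way. Rgs5, a signalling regulator that marks pericytes, fell with TNBS on the standard diet by 0.95 on the log2 scale with the array set on probe set 1420941_at (SE 0.14; adjusted p = 0.0376 in limma, and 0.0593 with group means). Its other 3 probe sets gave -0.67, -0.47 and -1.21 with group means and did not pass. The 10 mural cell probe sets, these 4 included, had a median of -0.10. Fat cell genes were also lower, with a summed signal of 5 genes from 7886 to 8272 in these controls and 2998 to 7068 after TNBS, and 0 of their 7 probe sets passed. Summed smooth muscle signal overlapped between all groups (15706 to 25377 over all samples). The median over 7 smooth muscle probe sets was -0.08 with TNBS on the standard diet and 0.10 with curcumin under TNBS. With the array set these were -0.19 and 0.20, with 3 and 5 of the 7 higher. In that fit Myh11 stood at -0.62 ± 0.13 and 0.52 ± 0.13 (log2 ± SE; adjusted p of 0.0581 and 0.0883 in limma). How far the makeup of the samples sets these differences was not tested.

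**Figure D5:**
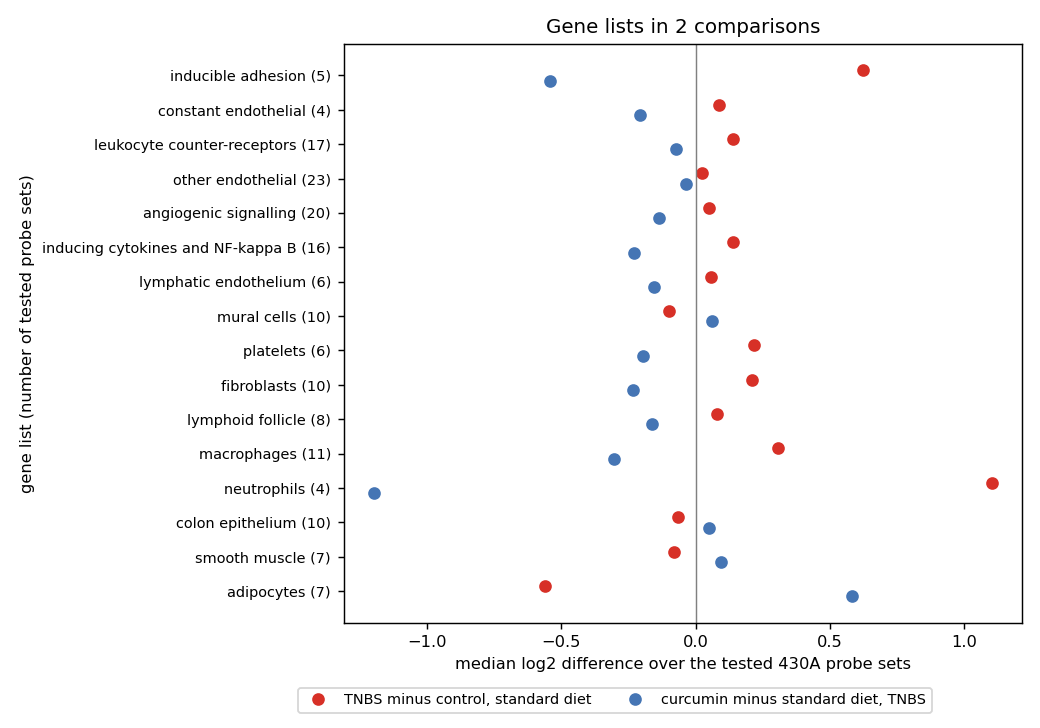
Median log2 difference (horizontal axis) over the tested 430A probe sets of each gene list (vertical axis, number of probe sets in brackets), for TNBS against control enema on the standard diet (red) and curcumin against standard diet under TNBS (blue). Inducible adhesion genes stand at 0.62 and -0.54 and neutrophil genes at 1.10 and -1.20. Both comparisons share the standard diet TNBS samples, lists with fewer than 4 probe sets are left out, and so are pancreatic acinar genes, at 2.11 and -2.79.

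Over the 12 arrays of 430A, the genes whose log2 signal followed a member most closely were listed as a description, since the arrays share the sets and the group differences. For Vcam1 the 5 highest Pearson r were those of Srsf6 (0.92), Cldn10 (0.91), Ptpro (0.91), Bag2 (0.89) and Tgm2 (0.89). Madcam1 was followed by Efhd2 (0.92), Col5a2 (0.91), Ier5l (0.87), Mthfd2 (0.87) and Pign (0.86). For Pecam1 they were Nfkbia (0.93), Thy1 (0.92), Lcp1, a leukocyte actin-bundling protein (0.90), Icam1 (0.90) and Rpf2 (0.89), so that 1 of the 10 members appears in another member's list.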

How the data were processed

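Total RNA of whole colon was hybridised to Affymetrix MOE430A and MOE430B arrays, 12 of each. The deposited values are linear signal intensities; the submitters' processing notes name GCOS, with its version not given in the sources used here. Precision is limited by the number of arrays (median SE 0.198 log2 on 430A). Median signals were 226.8 to 284 on 430A, and 0 of 66 array pairs were identical.

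Signals plus 16 were log2-transformed, and probe sets with a mean above the 40th percentile of their array type were tested (13575 on 430A, 13506 on 430B). Limma 3.58.1 in R 4.3.3 (lmFit, eBayes with trend) fitted 4 group means to the 12 arrays of a type, with two-sided p adjusted by Benjamini-Hochberg within it and a threshold of 0.05. Ranges given as 95% intervals are unadjusted. The script was tested on simulated data. Genes were named from the platform annotation, and a gene is represented by its tested probe set of highest mean. Every member probe set is named, and from other lists those past the threshold or, failing that, up to 3 of smallest p for TNBS on the standard diet (of the cell lists, only some of these). Members and lists were chosen with earlier results of these data known. Alternatives changed the pseudocount, filter, scaling, moderation, arrays in the fit, array set, probe set choice and threshold, and left out each sample.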

Additional observations from a re-analysis of the deposited data

How the results depend on the processing

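The count of member probe sets past the threshold stayed at 0 in all 5 comparisons under the other planned settings, except that it was 1 for TNBS on the standard diet with the array set as a term, with or without the outlying 430B arrays. Over the single genes, 796 of the alternative values kept their direction and side of the threshold, 407 of them with a sample left out. The following values reversed, and the cause was not tested. Averaging all probe sets of a gene, Cdh5 for TNBS on the standard diet was -0.087, and Vcam1 was 0.014 for TNBS on curcumin and -0.0049 for diet with the control enema. Icam1 for diet with the control enema was 0.055 with quantile normalization and 0.045 with median centring, where Pecam1 was 0.0024. The Cdh5 interaction was -0.14 with the array set. Leaving out each sample gave -0.17 to 0.20 for Cdh5 with TNBS on the standard diet and -0.38 to 0.028 for Cdh5 with curcumin under TNBS. With TNBS on curcumin it gave -0.10 to 0.19 for Icam1, -0.17 to 0.15 for Madcam1 and -0.039 to 0.15 for Pecam1, and for diet with the control enema -0.12 to 0.16, -0.029 to 0.29 and -0.14 to 0.055 in the same order. Without reversing, the inducible genes relative to the constant markers in curcumin controls moved from -0.39 to -0.60 with averaged probe sets and to -0.25 without Cd34. The runs that left out samples from the fit with the array set were chosen after seeing the data. In them the count of members was 0 to 2, for TNBS on the standard diet and for curcumin under TNBS alike, and the number of all 430A probe sets called for TNBS on the standard diet ran from 0 to 292. The labels number the samples through all groups, so none share a replicate number. No paired analysis was possible because of this. Signal limits Sele, Selp and Vwf, which lay below the filter.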
